A study of Homo sapiens with 4 samples.

Results

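Hedgehog receptors and GLI factors were measured in RWP-1, an established human pancreatic cancer cell line, as the genes GLI1, GLI2, GLI3, PTCH1, SMO, SUFU and HHIP. A gene was taken where the platform annotation gave a probe set exactly 1 symbol equal to its name, which left 6 of the 7 genes, each with 1 probe set, out of 14884 named genes. SMO had no such probe set and is not analysed here. The 2 groups were cells treated with rGAL1, read here as recombinant galectin-1, a lectin that cells secrete and that recognises galactose on glycans (n = 2 arrays), and cells without treatment, called Ctrl (n = 2 arrays). The labels give the short form of the agent and no dose, time or vehicle, and nothing in them ties an array to its own culture, so p-values measure the spread between 4 hybridisations and no more, part of which may be technical. The treatment field of the array rGAL1 2 reads as control, whereas its title and source name place it with rGAL1, where it was kept.

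Hedgehog signalling is read through the receptor PTCH1, which in the absence of ligand holds back the membrane protein SMO. When SHH, IHH or DHH binds PTCH1, SMO is released and the cytoplasmic inhibitor SUFU lets go of the GLI transcription factors. GLI2 is the main activator and GLI3 acts largely as a repressor, while GLI1, PTCH1 and HHIP are themselves transcribed when the pathway is on and serve as its readouts. In the pancreas, tumour cells are known as a source of the ligands, which act in large part on the surrounding stroma, and galectin-1 has been linked to the pathway there. The comparison asks whether the added lectin moved the transcripts of these components in the tumour cells themselves.

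The factors act on DNA through a core of 9 letters, TGGGTGGTC, or GACCACCCA on the opposite strand, and PTCH1 is the textbook target that carries it. RefSeq promoter windows (GRCh38.p14, 250 bases before to 50 bases after a start site) were matched by symbol for 5 of the 7 genes, GLI2, PTCH1, SMO, SUFU and HHIP, in 10 windows. The other members are GLI1 and GLI3. Of the 10 windows, 1 held the core on either strand, a window of PTCH1, which has 5 windows. Over all 35116 windows in the table, 83 held it, or 0.236%. The 250 bases before that PTCH1 start site, at chr9:95509267-95509516 on the minus strand, are shown because PTCH1 is a gene by which GLI activity is commonly read, with the core in capitals 163 bases before the start.
PTCH1: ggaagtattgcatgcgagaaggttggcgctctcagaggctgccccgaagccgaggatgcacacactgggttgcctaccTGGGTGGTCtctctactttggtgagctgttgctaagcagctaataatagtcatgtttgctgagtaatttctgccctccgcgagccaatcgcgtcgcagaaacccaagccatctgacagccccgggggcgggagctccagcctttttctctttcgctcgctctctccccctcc

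The core is a match of letters and not a measured site, and the absence of a match says only that these letters are not in a window. None of the other Hedgehog genes listed further on held it, among the 31 that had a window.

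Values are log2 expression per probe set as deposited. Their medians over all 53617 probe sets lay between 4.69 and 4.72 on the 4 arrays, and over the named genes between 5.82 and 5.84. All 6 measured of 9 listed epithelial markers lay above the median of every array, from 0.067 to 7.73 log2 units. KRT18, a keratin, led, followed by EPCAM and KRT19. The lowest was the keratin KRT7, between 4.76 and 5.37, which is below the median of the named genes on every array. The fibroblast markers DCN and LUM, 2 measured of 6 listed, lay between -1.83 and -1.33 from it on all arrays. The 3 measured of 4 endothelial markers lay between -0.87 and 0.30, and the 2 measured of 5 leukocyte markers, LYZ and CD14, between -0.31 and 0.38. CD14 lay above the median on every array, as the epithelial markers did. The table carries no detection calls.

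In rGAL1-treated cells none of the 6 genes passed the test, and each differed from Ctrl by 0.15 log2 units or less in either direction. At an adjusted p under 0.05 (limma, Benjamini-Hochberg over all probe sets), 0 of 6 genes were called, where 0% of all probe sets were called, and 0 of 6 had an unadjusted p under 0.05, where 5.24% of all probe sets and 2.98% of named genes did. HHIP, GLI1 and SUFU had higher means and GLI3, GLI2 and PTCH1 lower ones, so 3 of 6 were higher, beside 51.7% of named genes. The median difference was 0.029, beside 0.0056 over all named genes, and the median absolute difference was 0.063, beside 0.084. The 95% intervals of the 6 differences lay between 0.775-fold, the lower bound for GLI3, and 1.41-fold, the upper bound for GLI1, and each included no change. An exact permutation test of 2 arrays against 2 cannot go below a two-sided p of 0.333.

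PTCH1, the receptor for the ligands and a transcriptional readout of the pathway, measured 6.26 and 6.42 in rGAL1 1 and rGAL1 2, against 6.36 and 6.33 in Ctrl 1 and Ctrl 2 (probe set 17096091). The groups overlapped, with the Ctrl arrays between the rGAL1 arrays. The means were 6.34 ± 0.12 in rGAL1 and 6.34 ± 0.024 in Ctrl (log2, SD, n = 2), a difference of -0.0056 (SE 0.11, 95% interval -0.30 to 0.28, limma adjusted p = 0.999). The difference between the arrays numbered 1 was -0.10 and between those numbered 2 it was 0.093, but the numbers were not taken to pair the arrays. These 2 values are therefore not read as replicate effects. PTCH1 lay 1.64 log2 units above the array median in rGAL1 and 1.63 ± 0.018 above it in Ctrl, at percentiles of 58.1 and 61.5 of the named genes in rGAL1 and of 60.6 and 59.7 in Ctrl.

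HHIP, a membrane protein that binds the ligands and so keeps them from the receptor, measured 3.54 and 3.56 in rGAL1 1 and rGAL1 2, against 3.43 and 3.38 in Ctrl 1 and Ctrl 2 (probe set 16971102). Both rGAL1 arrays lay above both Ctrl arrays. The means were 3.55 ± 0.014 in rGAL1 and 3.40 ± 0.034 in Ctrl (log2, SD, n = 2), a difference of 0.15 or 1.11-fold (SE 0.098, 95% interval -0.11 to 0.40, limma adjusted p = 0.926). HHIP was 1 of 6 genes whose groups did not overlap, where 37.2% of all named genes had no overlap in either direction and 20.2% in this one. A larger absolute difference was found in 25.9% of named genes. HHIP was also dim: it lay 1.15 log2 units below the array median in rGAL1 and 1.31 ± 0.028 below it in Ctrl, at percentiles from 6.34 to 8.57 of the named genes over the 4 arrays. The antisense transcript HHIP-AS1, added after its values were seen, measured 4.84 and 5.05 in rGAL1 1 and rGAL1 2, against 5.15 and 4.75 in Ctrl 1 and Ctrl 2. These groups overlapped, with a difference of -0.0035 (95% interval -0.46 to 0.45).

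**Figure D1:**
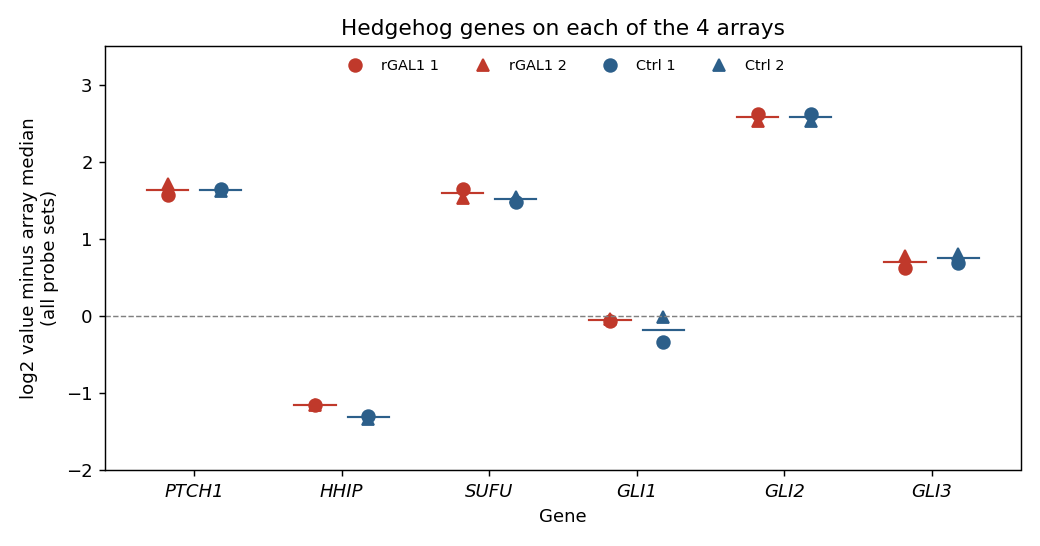
Log2 value minus the median of all probe sets of the same array (y axis) for the 6 measured genes (x axis), with rGAL1 arrays in red on the left and Ctrl arrays in blue on the right of each gene, circles for arrays numbered 1, triangles for arrays numbered 2 and short lines for the group means. The groups overlap for all genes but HHIP, and the widest gap within a group is that of GLI1 in Ctrl, with values of -0.34 and -0.014.

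SUFU, the inhibitor that binds GLI proteins in the cytoplasm, measured 6.34 and 6.24 in rGAL1 1 and rGAL1 2, against 6.20 and 6.26 in Ctrl 1 and Ctrl 2 (probe set 16708699). The array rGAL1 1 was the highest, and rGAL1 2 lay between the Ctrl arrays. The means were 6.29 ± 0.068 in rGAL1 and 6.23 ± 0.041 in Ctrl (log2, SD, n = 2), a difference of 0.064 (SE 0.10, 95% interval -0.21 to 0.33, limma adjusted p = 0.972). The level was 1.59 log2 units above the array median in rGAL1 and 1.51 ± 0.047 above it in Ctrl.

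GLI1, the factor that is itself induced when the pathway is on, measured 4.63 and 4.68 in rGAL1 1 and rGAL1 2, against 4.38 and 4.70 in Ctrl 1 and Ctrl 2 (probe set 16752888). The array Ctrl 1 alone was low, and Ctrl 2 was the highest of the 4. The gap between the Ctrl arrays was 0.32 log2 units, exceeded in 10.4% of named genes, and that between the rGAL1 arrays was 0.046, exceeded in 75.0%. The means were 4.65 ± 0.033 in rGAL1 and 4.54 ± 0.23 in Ctrl (log2, SD, n = 2), a difference of 0.12 (SE 0.14, 95% interval -0.26 to 0.49, limma adjusted p = 0.962). Without Ctrl 1 the difference was -0.044, and without Ctrl 2 it was 0.28. GLI1 lay 0.048 log2 units below the array median in rGAL1 and 0.18 ± 0.23 below it in Ctrl, and it was below the median on each of the 4 arrays.

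GLI2, the main activator, was the gene with the highest value relative to the array: 2.58 log2 units above the median in rGAL1 and 2.58 ± 0.062 above it in Ctrl. It measured 7.31 and 7.24 in rGAL1 1 and rGAL1 2, against 7.34 and 7.25 in Ctrl 1 and Ctrl 2 (probe set 16885153). The arrays numbered 1 were higher than those numbered 2 in both groups. The means were 7.28 ± 0.050 in rGAL1 and 7.29 ± 0.067 in Ctrl (log2, SD, n = 2), a difference of -0.015 (SE 0.10, 95% interval -0.29 to 0.26, limma adjusted p = 0.995).

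GLI3, which in the absence of ligand is cut to a repressor form, measured 5.31 and 5.49 in rGAL1 1 and rGAL1 2, against 5.41 and 5.52 in Ctrl 1 and Ctrl 2 (probe set 17056992). Here the arrays numbered 2 were the higher ones in both groups, and the groups overlapped. The means were 5.40 ± 0.12 in rGAL1 and 5.46 ± 0.077 in Ctrl (log2, SD, n = 2), a difference of -0.062 (SE 0.12, 95% interval -0.37 to 0.24, limma adjusted p = 0.976). GLI3 lay 0.70 log2 units above the median of all probe sets in rGAL1 and 0.75 ± 0.083 above it in Ctrl. Against the median of the named genes the Ctrl level was -0.36, because named genes are brighter than the rest of the table.

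Read against the named genes of the same array, the 6 genes spanned a wide range in untreated cells. In Ctrl 1 and Ctrl 2 GLI2 stood at percentiles of 78.6 and 76.7, SUFU at 57.6 and 58.5, GLI3 at 41.8 and 44.1 and GLI1 at 21.5 and 28.3. Probe sets differ in how strongly they bind their targets, so these percentiles place each probe set on the array and do not rank the transcripts by amount.

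**Figure D2:**
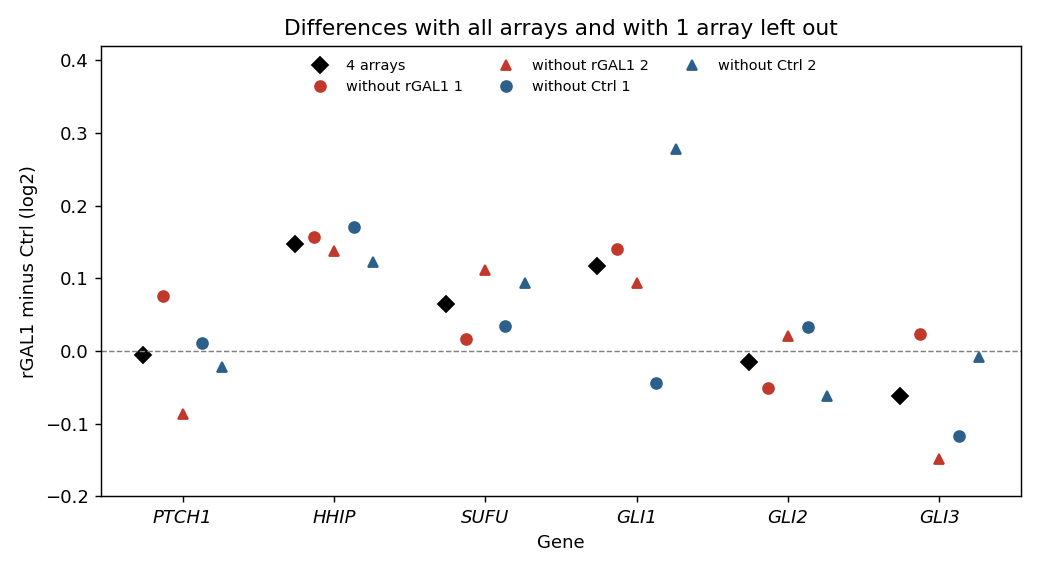
Difference rGAL1 minus Ctrl in log2 units (y axis) for the 6 genes (x axis), from all 4 arrays (black diamonds) and with 1 array left out (red for a left-out rGAL1 array, blue for a left-out Ctrl array, circles for number 1 and triangles for number 2). HHIP stays between 0.12 and 0.17 and SUFU between 0.016 and 0.11, while the points of GLI1, GLI2, GLI3 and PTCH1 lie on both sides of 0. The groups of HHIP do not overlap, so its points could not cross 0.

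Leaving out 1 array in turn kept the sign for HHIP, between 0.12 and 0.17, and for SUFU, between 0.016 and 0.11. The HHIP groups did not overlap, so leaving out 1 array could not turn its sign, and the kept sign adds nothing to the separation. The difference of GLI1 ran from -0.044 to 0.28, that of GLI2 from -0.062 to 0.033, that of GLI3 from -0.15 to 0.023 and that of PTCH1 from -0.087 to 0.076. Such a fit has a lone array on one side, which is assumed to vary like the others. For the array rGAL1 2, whose labels conflict, the differences without it were 0.14 for HHIP, 0.11 for SUFU, 0.094 for GLI1, 0.021 for GLI2, -0.087 for PTCH1 and -0.15 for GLI3. Counted as a control, it gave 0.085 for HHIP, 0.11 for SUFU, 0.047 for GLI1, 0.038 for GLI2, -0.11 for PTCH1 and -0.16 for GLI3. GLI2 thus had its sign turned by either choice, and the other 5 genes kept theirs.

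The other genes of the pathway were taken from a list of 42 in 5 roles, of which 33 had a named probe set. In rGAL1 14 had higher and 19 lower means, with a median difference of -0.018, beside 0.0056 over all named genes, and 0 of 33 had an unadjusted p under 0.05 (limma), against 2.98% of named genes. The rGAL1 and Ctrl arrays did not overlap in 8 of the 33, 2 higher and 6 lower, where 20.2% of named genes were separated upwards and 17% downwards. Leaving out 1 array changed the sign of 19 of the 33 differences. The 8 genes without overlap could not change sign, and the same count over all named genes was not made.

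**Figure D3:**
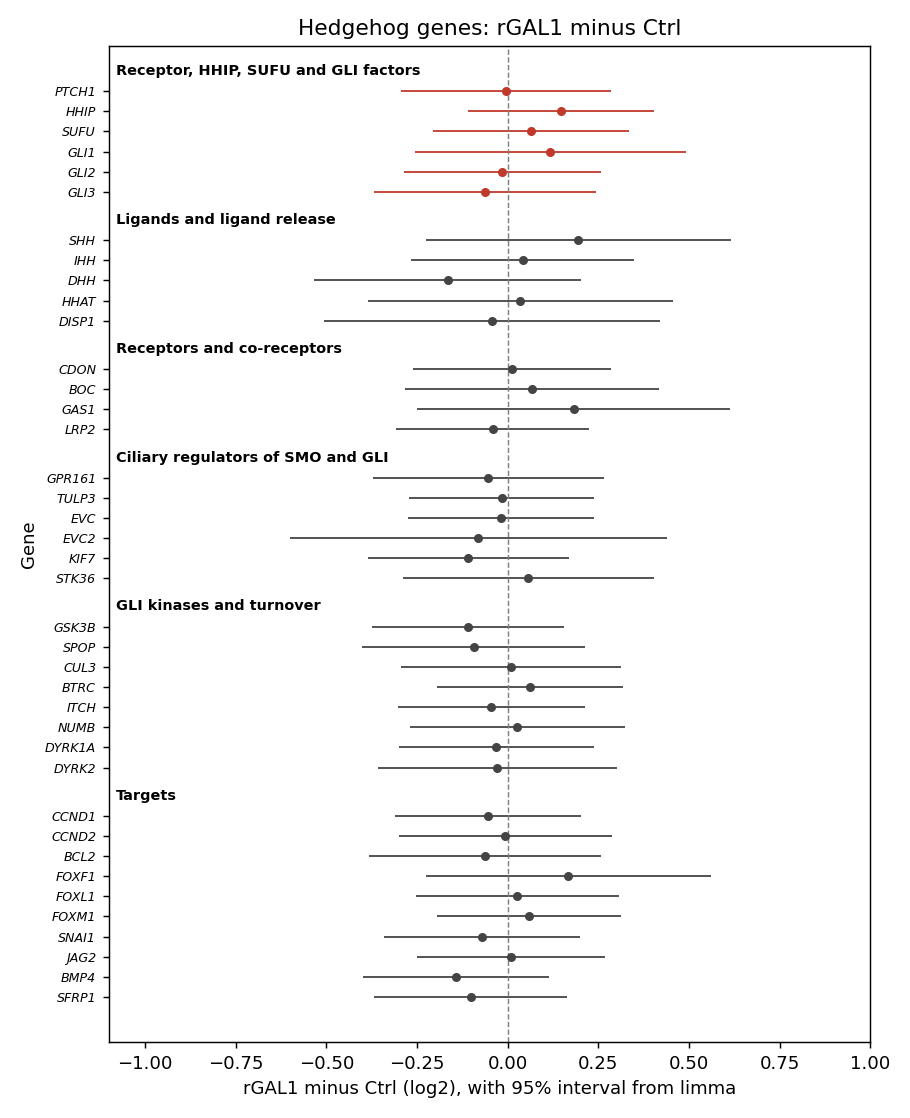
Difference rGAL1 minus Ctrl in log2 units (x axis) with its 95% interval from limma (bars) for the 6 genes (red) and 33 other Hedgehog genes by role (grey), one gene per row. Every interval includes 0.

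Among the ligands, SHH measured 5.52 and 5.43 in rGAL1 1 and rGAL1 2, against 5.48 and 5.09 in Ctrl 1 and Ctrl 2. Ctrl 2 alone was low, and the difference of 0.19 (95% interval -0.23 to 0.62, limma adjusted p = 0.943) was 0.00039 without it. DHH differed by -0.17 (95% interval -0.53 to 0.20). Its difference was -0.024 without Ctrl 2 and -0.31 without Ctrl 1. IHH differed by 0.042, and between -0.059 and 0.14 with 1 array left out. HHAT, the acyltransferase that attaches palmitate to the ligands, differed by 0.034, and DISP1, which releases them from the producing cell, by -0.043, and both changed sign with 1 array left out, between -0.16 and 0.23 for HHAT and between -0.27 and 0.18 for DISP1. The 5 measured genes of ligand making and release of 6 listed had 3 higher and 2 lower means, with 0 past the test.

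Of the co-receptors that present ligand to PTCH1, GAS1 measured 5.04 and 5.24 in rGAL1 1 and rGAL1 2, against 5.14 and 4.77 in Ctrl 1 and Ctrl 2. Its difference of 0.18 (95% interval -0.25 to 0.61, limma adjusted p = 0.949) was -0.0013 without Ctrl 2, which was the low array, as for SHH. CDON differed by 0.012 and BOC by 0.067, and both changed sign with 1 array left out. LRP2, an endocytic receptor that takes part in SHH uptake, differed by -0.042 and was dim, between 3.90 and 4.01 on the 4 arrays.

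Among ciliary regulators, 6 measured of 7 listed, 1 had a higher and 5 a lower mean, with 0 past the test. KIF7, a kinesin that organises the tip of the cilium where GLI proteins are processed, differed by -0.11 (95% interval -0.39 to 0.17), EVC2, a ciliary partner of SMO, by -0.081 (95% interval -0.60 to 0.44) and STK36, the human homologue of the fly kinase Fused, by 0.057. With 1 array left out EVC2 ran from -0.32 to 0.16 and STK36 from -0.082 to 0.20, both with a change of sign. KIF7 ran from -0.17 to -0.045, and as its groups did not overlap, its sign could not turn. Among kinases and turnover factors of GLI proteins, 8 measured of 13 listed, 3 had higher and 5 lower means, again with 0 past the test. GSK3B, which phosphorylates GLI proteins for processing, differed by -0.11 (95% interval -0.37 to 0.16), SPOP, an adaptor for their degradation, by -0.093, and BTRC, the ligase subunit that marks GLI3 for processing, by 0.062. With 1 array left out SPOP ran from -0.19 to 0.0059, GSK3B from -0.15 to -0.066 and BTRC from 0.045 to 0.080. The groups of GSK3B and of BTRC did not overlap, so their signs could not turn.

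The 10 measured targets of 11 listed had 4 higher and 6 lower means, a median of -0.030 and 0 past the test. FOXF1, a forkhead factor known as a Hedgehog target in mesenchyme, measured 5.84 and 5.68 in rGAL1 1 and rGAL1 2, against 5.75 and 5.44 in Ctrl 1 and Ctrl 2. The groups overlapped, and the difference of 0.17 (95% interval -0.23 to 0.56) was 0.0079 without Ctrl 2. BMP4, a secreted growth factor, measured 9.75 and 9.70 in rGAL1 1 and rGAL1 2, against 9.87 and 9.87 in Ctrl 1 and Ctrl 2. The groups did not overlap, rGAL1 being the lower, with a difference of -0.14 (95% interval -0.40 to 0.11, limma adjusted p = 0.927) that lay between -0.16 and -0.12 with 1 array left out and was -0.066 with rGAL1 2 counted as a control. SFRP1, a secreted Wnt inhibitor, differed by -0.10 (95% interval -0.37 to 0.16), also without overlap, and between -0.15 and -0.054 with 1 array left out. Without overlap, leaving out 1 array could not turn the sign of BMP4 or SFRP1. Other pathways control many of these targets as well.

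The genes whose 4 values followed each member most closely were found by Euclidean distance over the 4 arrays after subtracting each gene's own mean, among named genes above the median level. For GLI1 these were C1orf21 and MAML1, at distances of 0.014 and 0.028 log2 units, and for GLI2 GLG1 and EI24, at 0.0062 and 0.0084. PSENEN and CIROZ, both at 0.016, lay nearest to GLI3, and IRF2BP2 and ENTPD6, at 0.0066 and 0.014, nearest to PTCH1. For SUFU the nearest were ATG3 and AKAP9, at 0.0049 and 0.0094, and for HHIP CDCA2 and LYPD2, at 0.0088 and 0.012. With 4 arrays such likeness is common: within a distance of 0.1 there were 118 genes for GLI1, 561 for GLI3, 873 for PTCH1, 1004 for HHIP, 1515 for GLI2 and 1702 for SUFU, of 10683 compared (10684 for GLI1 and HHIP).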

How the data were processed

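RNA input was 100 ng a sample, biotin-labelled by a whole-transcript method per the labels' protocols, on 4 single-channel arrays. The deposited values are log2 expression per probe set. Per the submitters' processing notes the tools were RMA and limma, with no version or setting stated there. RMA compresses differences of dim probe sets. The number of arrays limits the precision. Of 53617 probe sets, 16098 had exactly 1 symbol in the platform annotation, all were matched to a current record by Entrez ID, and they covered 14884 genes. The brightest probe set represented a gene with several.

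All probe sets were fitted together with limma 3.58.1 (R 4.3.3; lmFit, then eBayes, no covariate). The p-values are two-sided, adjusted by Benjamini-Hochberg over the table. The fit had 2 residual and 2.75 prior degrees of freedom. A run on simulated data, drawn from the fitted prior with independent normal errors, checked the calculation only and not how these 4 arrays vary. Intervals are from the moderated fit. Genes were named by rule: all members, all measured ligands and co-receptors, up to 3 genes of each other role with the largest absolute difference, and the 2 genes nearest to each member. The members and lists were chosen with earlier results of these data known. Arrays with the same number did not deviate together from their groups (r = -0.048 over all probe sets), so the numbers were not taken to pair the arrays. The titles number the arrays alike in both groups, and a correlation near 0 cannot exclude that they were paired.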

Additional observations from a re-analysis of the deposited data

How the results depend on the processing

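With 2 arrays kept in each group, no alternative brought any of the 6 genes past an adjusted or an unadjusted p under 0.05 (limma). In these fits 0% of the probe sets passed the adjusted p, and 1.94% to 6.22% of the named genes passed the unadjusted p. A null result for the 6 genes is thus not particular to them. Their smallest limma p in these fits was 0.818 adjusted and 0.124 unadjusted, both for HHIP. Over all 64 refitted differences, the sign turned in 8. Fits with the intensity trend or the replicate block, or on only a part of the probe sets, left each difference as it was. No sign could turn in those fits, nor could that of HHIP with 1 array left out, so the 64 include many fixed signs. All 8 came from the other refits. Centring the arrays on their medians gave 0.0084 for PTCH1 and a median of 0.020 over all named genes. Counting rGAL1 2 as a control gave 0.038 for GLI2. With 1 array left out the differences ran from -0.044 to 0.28 for GLI1, -0.062 to 0.033 for GLI2, -0.15 to 0.023 for GLI3 and -0.087 to 0.076 for PTCH1. Without Ctrl 1 they were -0.044 for GLI1, 0.033 for GLI2 and 0.011 for PTCH1, without rGAL1 1 they were 0.023 for GLI3 and 0.076 for PTCH1, and without rGAL1 2 it was 0.021 for GLI2. The median over the 6 genes lay between 0.022 and 0.057 with 1 array left out. With the replicate block the median was 0.029, the same as in the main fit, because a block balanced over the groups cannot change a difference. With it 0 genes were called, and the block changed no call. Fitting only probe sets above the median level dropped GLI1 and HHIP and left a median of -0.010 over 4 genes, beside 0.0091 over the named genes fitted. Of the 4 genes 0 were separated between groups, where 39.1% of the named genes fitted were. With rGAL1 2 counted as a control, rGAL1 1 lay outside the other arrays for 3 of 6 genes (50.9% of named genes), and with 1 array left out 3 to 4 of 6 were separated (66.5% to 71.1% of named genes); fewer arrays separate more often by construction. Of the other 33 Hedgehog genes, 1 had an unadjusted p under 0.05 with an intensity trend in the prior (BMP4, limma adjusted p = 0.888). In that setting 4.31% of named genes did. Without Ctrl 1, SHH differed by 0.39. Against the median of named genes, Ctrl levels were -1.29 for GLI1, 1.47 for GLI2, -0.36 for GLI3, 0.52 for PTCH1, 0.41 for SUFU and -2.42 for HHIP. The mean over several probe sets of a gene was not run, as each of the 6 genes has 1. GLI1 and HHIP lay below the median level, where RMA compresses differences.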
